A study of Mus musculus with 6 samples.

Results

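Genes of protein folding in the endoplasmic reticulum and of the early secretory pathway were examined in NIT-1 cells exposed to cadmium. The members were Hspa5 and every gene whose symbol starts with Pdia, Edem, Derl, Tmed or Trappc, with Sec, Ssr or Alg and a digit, or with Cop and a, b, e, g or z. Cops genes, pseudogenes and Hsp90b1 were left out. Of 18572 genes that could be named from a probe of their own, 51 were members, and each had 1 probe. RefSeq holds 91 protein-coding symbols of this kind, and the other 40, among them all Derl genes and every Pdia gene but Pdia3, were not analysed here. The rule reads gene symbols only, and it was set with earlier results of these data known.

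NIT-1 is a line of mouse pancreatic beta cells from a transgenic mouse that carries a viral T antigen under an insulin promoter. Cells were plated for 24 h and then kept for 24 h either with 4 µmol/L cadmium sulphate (3 arrays) or in medium alone (3 arrays), both with fetal bovine serum, penicillin and streptomycin. Total RNA was labelled with biotin and read on 1 array per sample, and the labels call the 3 samples of each group biological replicates without saying whether they came from separate passages. P-values therefore measure the spread between these samples, which may be technical, and 3 arrays a group set the precision.

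The lumen of the endoplasmic reticulum receives nascent secretory and membrane proteins through the Sec61 channel, where signal peptides are removed and a preassembled glycan is attached. Chaperones such as BiP (Hspa5) and disulfide isomerases fold these proteins, and EDEM proteins mark glycoproteins that fail to fold for degradation. Folded cargo leaves in COPII vesicles, and COPI vesicles return proteins from the Golgi. Beta cells put much of their protein synthesis through this route when they make insulin.

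Values are log2 signals as deposited, and a difference is cadmium minus control. Array medians lay between 3.34 and 3.40, and averaged 3.39 on cadmium and 3.34 on control arrays, a difference of 0.049 (exact permutation test, two-sided p = 0.1, the smallest that 3 against 3 arrays allow). An approximate background bound of 6.18 was set from the negative control probes, as the 95th percentile on each array averaged over the 6 arrays. On the second principal component, with 15.6% of the variance, cadmium replicate 1 and control replicate 3 lay apart from the other 4 arrays. The labelled cell type was not borne out above background, since all 6 measured beta cell markers of 12 listed had means below the bound, the highest being Ins2 at 5.29 on cadmium and 5.27 on control arrays. The summed linear signal of the beta cell list was 118 to 120 on cadmium and 109 to 117 on control arrays, and 0 of its genes passed the test. Of 11 fibroblast or stromal markers 5 were measured, of which Tagln was higher, Col3a1 was lower, and only Col3a1 was above the bound, at 8.06 on cadmium and 9.07 on control arrays. The summed signal of that list was 354 to 446 on cadmium and 608 to 700 on control arrays, and the part of these markers in the results was not tested. Fewer cells of a type and less RNA per cell cannot be told apart in bulk samples.

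With cadmium, 14 of the 51 members fell and 0 rose at an adjusted p under 0.05 (limma, Benjamini-Hochberg over all genes), while 37 did not pass. Among all genes 5.8% were called lower and 6.45% higher. At an unadjusted p under 0.05, 20 members were lower and 1 was higher, against 11.4% and 17.6% of all genes. The genes that fell were those of protein translocation (Sec62, Sec61a1, Sec63, Ssr3, Sec11a), of glycan assembly (Alg5, Alg9, Alg14, Alg6), of degradation (Edem2, Edem3), of the COPI coat (Copb1, Copb2) and of vesicle tethering (Trappc11). None of the 8 COPII members passed in either direction, nor did Hspa5.

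The median difference was -0.14 over the members, against 0.044 over all genes. The difference was below 0 in 39 members, or 76.5%, against 37.5% of all genes. In 23 members every cadmium array lay below every control array, and in 2 members, Sec16a and Trappc2l, every cadmium array lay above. Over all genes such separation was found in 13.1% downward and 22.8% upward. With each array centred on its median the members' counts were 28 and 2, against 19.6% and 13.7% of all genes. The calls over all genes, 1198 higher and 1078 lower as deposited, were 821 and 1502 with centred arrays (4.42% and 8.09%) and 910 and 1391 after quantile normalization (4.9% and 7.49%). The members' calls were 0 higher and 16 lower under both.

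Both group means exceeded the background bound in 12 members, of which 4 fell (33.3%), and in 1970 of all genes, of which 9.95% fell. The other 10 members that fell had both means below it, where a change may be compressed and no fold is given. The count of members that fell was 4 without cadmium replicate 2, 3 without cadmium replicate 3, 5 without control replicate 1 and 5 without control replicate 2, where 2.9%, 2.97%, 3.12% and 2.86% of all genes were called lower. Without both arrays that stood apart, 17 members fell and 2, Sec16a and Trappc3l, rose, against 7.18% and 8.4% of all genes. Without cadmium replicate 1 or control replicate 3 alone, 14 and 13 members fell, against 5.6% and 5.45% of all genes, and 1 rose without control replicate 3, against 5.84%. When genes dimmer than the median gene were left out, 15 of 41 members fell and 1 rose, against 12.6% and 12% of the genes tested, and at or above the bound 5 of 13 fell, against 13.5%. With array weights 18 fell and 1 rose (8.14% and 9.95% of all genes), with a replicate block 8 fell (3.46%), and at an adjusted p under 0.01 the count was 3 (2.23%). Sec62, Alg5 and Ssr3 passed in each of the 6 fits that left out 1 array, and Alg6 passed in 0 of them.

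**Figure D1:**
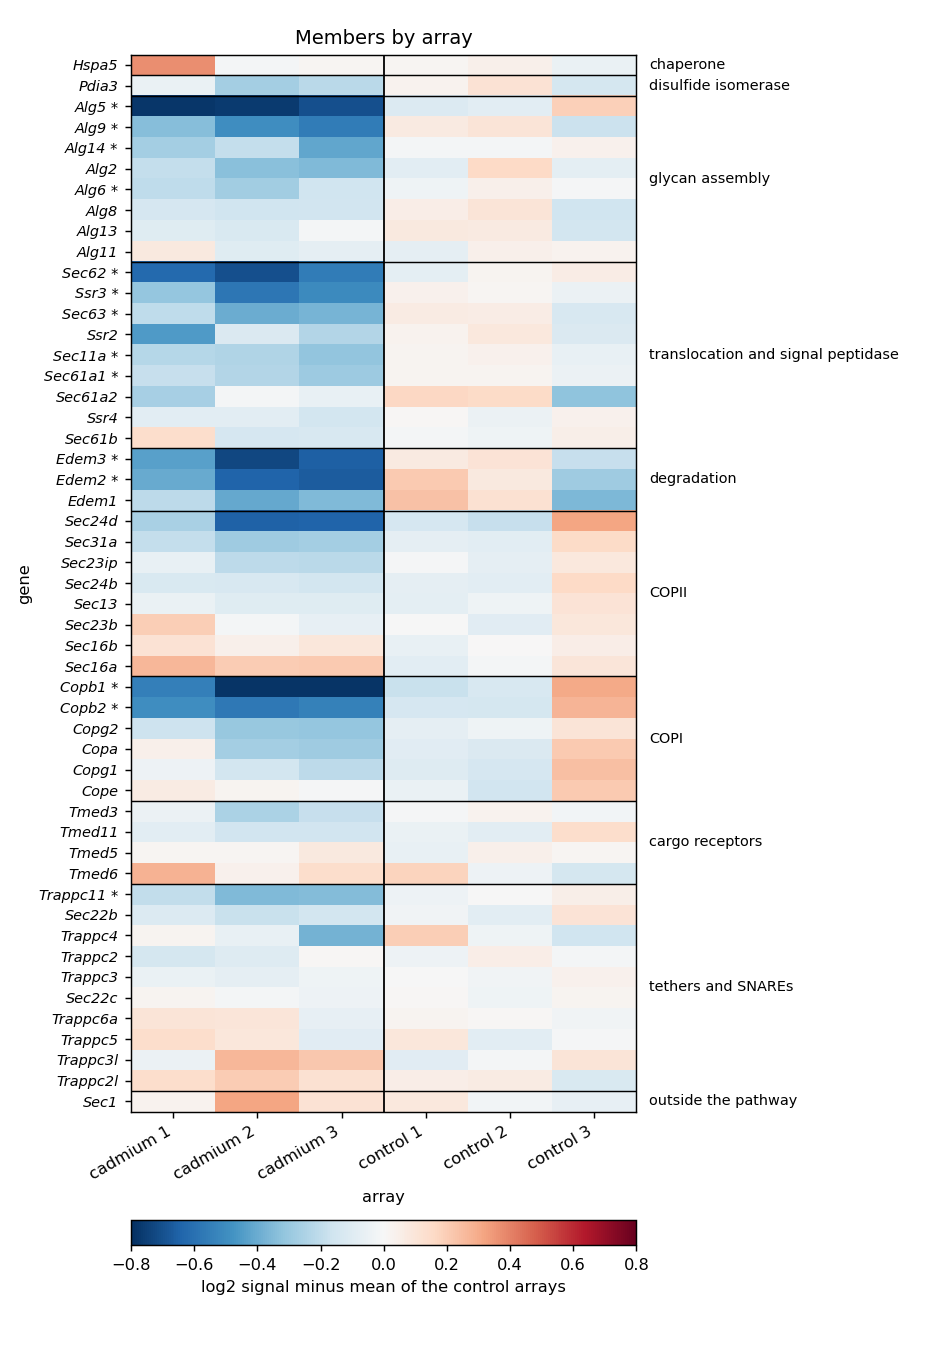
Log2 signal of each of the 51 members (rows, grouped by role) on each array (columns), minus the mean of the 3 control arrays of that gene. Asterisks mark the 14 genes past the adjusted threshold, of translocation, glycan assembly, degradation, the COPI coat and tethering, which are blue on all 3 cadmium arrays. Some rows without an asterisk, such as Copg2 and Sec24d, are blue on all 3 as well.

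**Figure D2:**
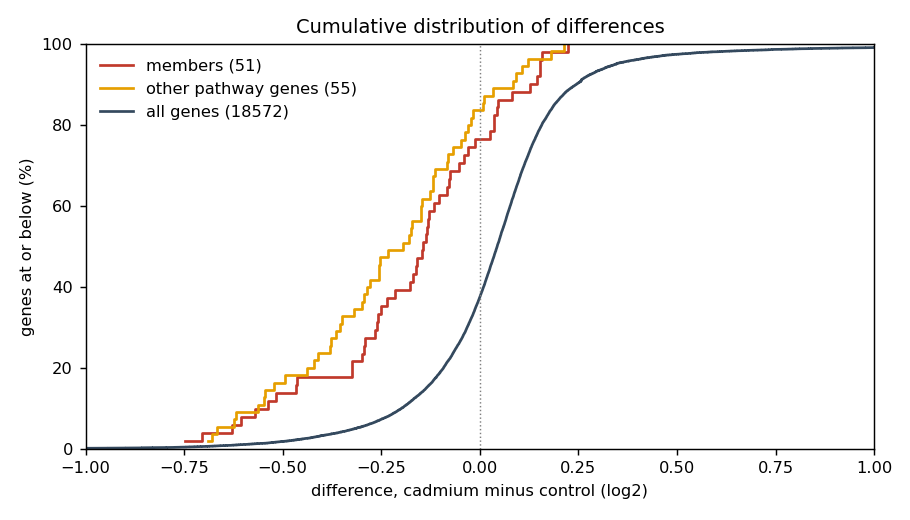
Cumulative share of genes (percent) by difference between groups (log2, cadmium minus control) for the 51 members, 55 other genes of the pathway and all 18572 genes. The median of the members is -0.14, that of the other pathway genes -0.19 and that of all genes 0.044.

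Hspa5 encodes BiP, the Hsp70 chaperone of the endoplasmic reticulum and a standard marker of the unfolded protein response. Its signal was 6.62, 6.23 and 6.26 on the cadmium arrays, against 6.26, 6.28 and 6.19 on the control arrays. Cadmium replicate 1 alone stood above the controls, and the groups overlapped. Both means, 6.37 on cadmium and 6.24 on control arrays, lay close to the background bound of 6.18, which limits what a small difference can show. The difference was 0.13 with a 95% interval of -0.12 to 0.37 (limma adjusted p = 0.47), and without cadmium replicate 1 it was 0.0017. Without that array and control replicate 3 it was -0.024.

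The RefSeq promoter of Hspa5, from 250 bases before to 50 after the start (GRCm38.p6), holds a copy of the endoplasmic reticulum stress element, through which ATF6 acts in this promoter. It is shown because Hspa5 is the gene by which this response is usually read. The match lies at -65 to -47 from the start, in the window chr2:34772005-34772064 on the plus strand, and is in capitals.
Hspa5: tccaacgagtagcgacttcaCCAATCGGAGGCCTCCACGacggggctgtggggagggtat

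Among 32851 promoter windows searched on both strands, 0.119% hold that motif. Of the 48 windows of 45 members, 1 held it, in Hspa5. The related element called ERSE-II was found in 0 of the members' 48 windows and in 0.0365% of all windows. The motifs searched share the letters CCACG, and a match is a description of the sequence only.

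Pdia3, an isomerase that forms disulfide bonds in glycoproteins, had 7.90, 7.68 and 7.74 on cadmium arrays, against 7.98, 8.07 and 7.81 on control arrays. Its difference was -0.18 with a 95% interval of -0.38 to 0.03 (limma adjusted p = 0.22). Cadmium replicate 1 lay above control replicate 3, so the groups overlapped. Without both of these arrays the difference was -0.31 (limma adjusted p = 0.031). With any single array left out Pdia3 did not pass (limma adjusted p = 0.11 to 0.48).

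Translocation into the endoplasmic reticulum and signal peptide removal were represented by 9 members, with a median difference of -0.26. Of these 5 fell and 0 rose, against 5.8% and 6.45% of all genes. All 9 differences were below 0, against 37.5% of all genes. Sec62, a membrane protein that helps the Sec61 channel take up short secretory proteins, had 7.72, 7.64 and 7.78 on cadmium arrays, against 8.26, 8.36 and 8.40 on control arrays. The highest cadmium array lay 0.48 below the lowest control array, a gap wider than the spread within either group. The level was 1.55-fold lower with cadmium (difference -0.63 ± 0.06, SE, limma adjusted p = 0.0017), and the highest adjusted p with 1 array left out was 0.013.

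Sec61a1, which forms the pore of the channel, had 7.52, 7.47 and 7.41 on cadmium arrays, against 7.73, 7.73 and 7.65 on control arrays. The change was small, 1.18-fold lower (limma adjusted p = 0.033), and the groups were separated by 0.13. Its paralogue Sec61a2 had 5.36, 5.61 and 5.57 on cadmium arrays and 5.79, 5.78 and 5.31 on control arrays. There the groups overlapped, because control replicate 3 was the lowest of all 6 arrays (limma adjusted p = 0.63). The pore gene Sec61a1 lost its call without cadmium replicate 2 or 3 or control replicate 1 or 2, at adjusted p of 0.0995 to 0.115, and with trend and robust eBayes at 0.080.

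Sec63, the partner of Sec62 that recruits BiP to the channel, had 4.85, 4.65 and 4.68 on cadmium arrays, against 5.12, 5.11 and 4.92 on control arrays (difference -0.32, limma adjusted p = 0.041). Its call was lost without cadmium replicate 2 or 3 or control replicate 1 or 2, at adjusted p of 0.126 to 0.135. Ssr3, a subunit of the translocon-associated protein complex, had 4.69, 4.42 and 4.49 on cadmium arrays, against 5.03, 5.02 and 4.95 on control arrays. The groups did not overlap, and the difference was -0.46 ± 0.08 (SE, limma adjusted p = 0.0098).

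Sec11a, a catalytic subunit of signal peptidase, had 4.70, 4.69 and 4.61 on cadmium arrays, against 4.95, 4.96 and 4.87 on control arrays (difference -0.26, limma adjusted p = 0.023). Without cadmium replicate 2 or 3 or control replicate 1 or 2 its adjusted p was 0.069 to 0.091. The other subunits of the translocon-associated complex, Ssr2 and Ssr4, and the channel subunit Sec61b did not pass. Ssr2 had 7.45, 7.78 and 7.66 on cadmium arrays and 7.93, 7.98 and 7.78 on control arrays, which touched at 7.78. The differences of Ssr4 and Sec61b were -0.10 and -0.04.

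The glycan that is attached to secretory proteins is built on dolichol by the ALG enzymes. Of 8 such members 4 fell and 0 rose, against 5.8% and 6.45% of all genes. The differences of all 8 were below 0, against 37.5% of all genes, and their median was -0.25. All 8 had both means below the background bound. Alg5, which makes the glucose donor dolichyl-phosphate glucose, had 5.32, 5.33 and 5.39 on cadmium arrays, against 5.99, 6.01 and 6.29 on control arrays. The difference was -0.75 ± 0.09 (SE, limma adjusted p = 0.0025), with both means below the bound and 0.60 between the nearest arrays of the 2 groups.

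Alg9, a lumenal mannosyltransferase, had 5.05, 4.89 and 4.84 on cadmium arrays, against 5.46, 5.50 and 5.22 on control arrays (difference -0.47, limma adjusted p = 0.020). Alg14, the membrane anchor of the enzyme that adds the second sugar, had 4.51, 4.59 and 4.37 on cadmium arrays, against 4.77, 4.77 and 4.82 on control arrays (difference -0.29, limma adjusted p = 0.033). Alg6, which transfers the first glucose, had 3.04, 2.96 and 3.08 on cadmium arrays, against 3.21, 3.28 and 3.23 on control arrays (difference -0.21, limma adjusted p = 0.047). In all 3 genes the groups did not overlap, and each call depended on single arrays. Alg9 had an adjusted p of 0.0748 to 0.0756 without cadmium replicate 2 or 3 or control replicate 1 or 2, Alg14 of 0.057 to 0.097 without any array except cadmium replicate 2, and Alg6 of 0.076 to 0.15 without any 1 of the 6.

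Alg2, a cytosolic mannosyltransferase, had a difference of -0.29 and did not overlap between groups (limma adjusted p = 0.066). It passed with centred arrays (limma adjusted p = 0.039), but not with any single array left out (limma adjusted p = 0.056 to 0.18). Alg8, which adds the second glucose, had a difference of -0.15, and -0.23 without control replicate 3 (limma adjusted p = 0.24 and 0.046). With any other single array left out Alg8 did not pass (limma adjusted p = 0.31 to 0.51). Alg13, the partner of Alg14, and the mannosyltransferase Alg11 had differences of -0.08 and -0.03 with overlapping groups.

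The EDEM proteins trim mannose from misfolded glycoproteins on their way to degradation. Of the 3 genes 2 fell, against 5.8% of all genes, and the differences were -0.61, -0.57 and -0.32. Edem3 had 5.64, 5.34 and 5.42 on cadmium arrays, against 6.15, 6.18 and 5.89 on control arrays (limma adjusted p = 0.012). Edem2 had 5.62, 5.38 and 5.35 on cadmium arrays, against 6.23, 6.10 and 5.74 on control arrays (limma adjusted p = 0.036). In each gene control replicate 3 was the lowest control and cadmium replicate 1 the highest cadmium array, so those 2 arrays lay nearest to each other.

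Edem1, an established target of the unfolded protein response, had 6.71, 6.51 and 6.57 on cadmium arrays, against 7.16, 7.04 and 6.57 on control arrays. The groups overlapped through control replicate 3 (limma adjusted p = 0.20). Without that array the difference was -0.50 (limma adjusted p = 0.014). With any other single array left out Edem1 did not pass (limma adjusted p = 0.21 to 0.44). Edem3 and Edem2 lost their calls without cadmium replicate 2 or 3 or control replicate 1 or 2, at adjusted p of 0.0505 to 0.054 and of 0.101 to 0.119.

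**Figure D3:**
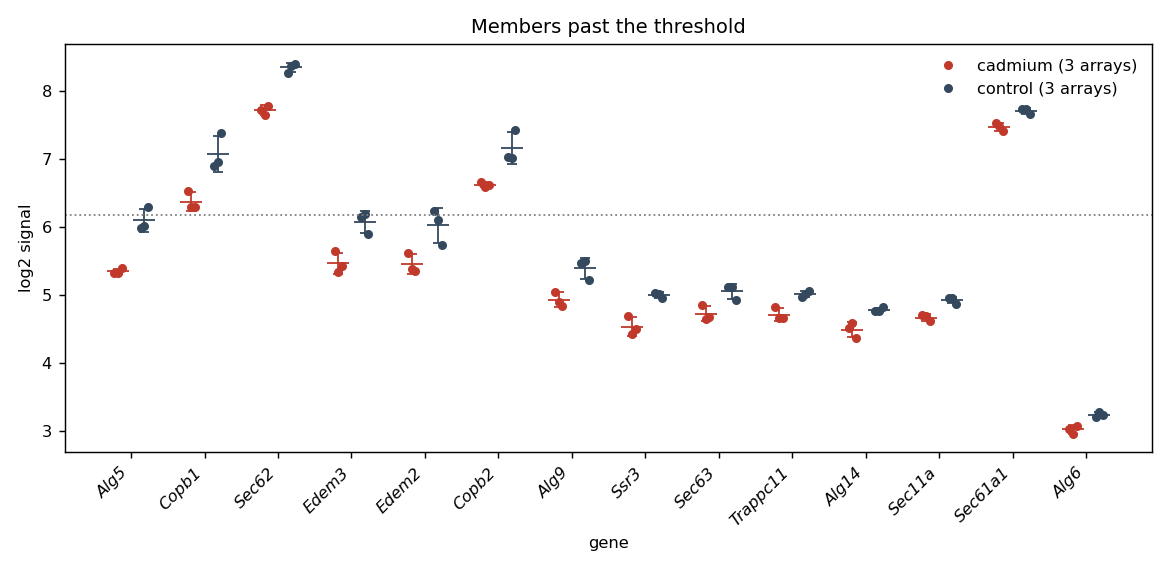
Log2 signal (vertical axis) of the 14 members past the threshold on each of 3 cadmium and 3 control arrays, with mean and SD; the dotted line is the background bound of 6.18, and levels of different genes are not comparable. No cadmium array overlaps a control array in any of the 14 genes. They were picked by p on these same arrays, which favours such separation, found downward in 13.1% of all genes. Sec62, Copb1, Copb2 and Sec61a1 have both means above the line.

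The COPI coat carries proteins from the Golgi back to the endoplasmic reticulum. Of its 6 subunits among the members 2 fell and 0 rose, against 5.8% and 6.45% of all genes, with a median difference of -0.22. The delta subunit gene Arcn1, outside the symbol rule, was measured too and did not pass (difference -0.26, limma adjusted p = 0.23). Copb1, the beta subunit, had 6.53, 6.29 and 6.29 on cadmium arrays, against 6.90, 6.95 and 7.38 on control arrays. It was 1.63-fold lower with cadmium (difference -0.70 ± 0.14, SE, limma adjusted p = 0.018). Copb2, the beta prime subunit, had 6.66, 6.58 and 6.61 on cadmium arrays, against 7.02, 7.02 and 7.43 on control arrays. It was 1.45-fold lower (difference -0.54 ± 0.11, SE, limma adjusted p = 0.024), and in both genes control replicate 3 was the highest array. Without cadmium replicate 2 the adjusted p was 0.071 for Copb1 and 0.086 for Copb2, and without cadmium replicate 3 it was 0.072 and 0.081.

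The 2 gamma subunits are encoded by separate genes. Copg2 had 7.06, 6.92 and 6.91 on cadmium arrays, against 7.15, 7.19 and 7.33 on control arrays, with no overlap, and just missed the threshold (difference -0.26, limma adjusted p = 0.054). Without cadmium replicate 1 it passed (difference -0.31, limma adjusted p = 0.042). With any other single array left out it did not (limma adjusted p = 0.086 to 0.155). Copg1 had a difference of -0.13, with a 95% interval of -0.39 to 0.12. The alpha subunit gene Copa had 6.81, 6.50 and 6.49 on cadmium arrays and 6.68, 6.65 and 6.98 on control arrays, which overlapped. The epsilon subunit gene Cope had a difference of 0.03.

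The COPII coat buds vesicles from the endoplasmic reticulum, and 0 of its 8 measured genes passed (limma, 2 lower and 1 higher at an unadjusted p under 0.05, against 11.4% and 17.6% of all genes). Their median difference was -0.11 and their range -0.52 to 0.22. Sec24d, a cargo-binding subunit, had 6.23, 5.84 and 5.84 on cadmium arrays, against 6.35, 6.30 and 6.80 on control arrays. Its groups did not overlap, but the spread among arrays was wide (difference -0.52 ± 0.16, SE, limma adjusted p = 0.081). Without cadmium replicate 1 the difference was -0.65 (limma adjusted p = 0.046). With any other single array left out it did not pass (limma adjusted p = 0.11 to 0.21).

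Sec31a, of the outer cage, had 5.72, 5.62 and 5.63 on cadmium arrays, against 5.83, 5.82 and 6.06 on control arrays (difference -0.25, limma adjusted p = 0.081). Sec16a, the scaffold of exit sites, had the largest difference upward among the members, with 5.67, 5.60 and 5.61 on cadmium arrays against 5.32, 5.39 and 5.50 on control arrays. Its groups did not overlap (difference 0.22, limma adjusted p = 0.060), and without control replicate 3 it passed at 0.27 (limma adjusted p = 0.031). With any other single array left out it did not pass (limma adjusted p = 0.12 to 0.17). Sec13, Sec23b, Sec23ip, Sec24b and Sec16b had differences between -0.16 and 0.08. Sec13, the partner of Sec31a, had 6.29, 6.24 and 6.24 on cadmium arrays and 6.26, 6.30 and 6.45 on control arrays. Sec23b, which activates the GTPase of the coat, had 6.03, 5.81 and 5.76 on cadmium arrays and 5.83, 5.74 and 5.92 on control arrays.

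The coat genes shared a pattern across arrays that the comparison of groups does not show. Control replicate 3 was the highest control array and cadmium replicate 1 the highest cadmium array in all 6 COPI and all 8 COPII members. Both conditions held in 15.7% of all genes, in 37.3% of the 51 members, which include these coat genes, and in 23.6% of the 55 other pathway genes. The median excess of control replicate 3 over the mean of the other controls was 0.33 in COPI and 0.16 in COPII genes, and that of cadmium replicate 1 over the other cadmium arrays was 0.14 and 0.08. In the 3 EDEM genes control replicate 3 was the lowest control, by a median of 0.43, while cadmium replicate 1 was again the highest cadmium array. These arrays are the pair that stood apart over all genes, and the part of that in the pattern was not tested.

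**Figure D4:**
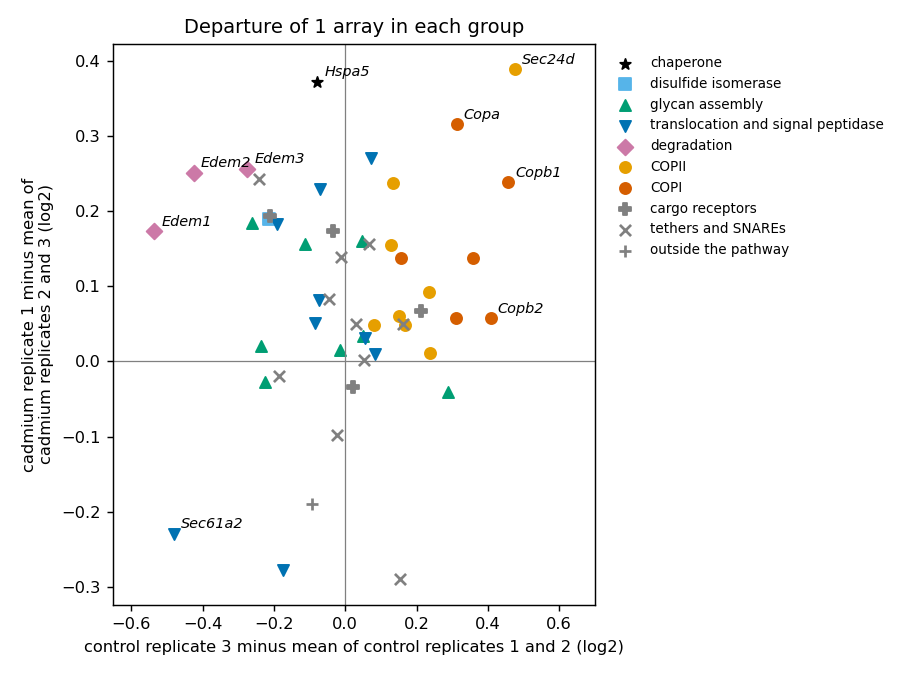
For each of the 51 members, control replicate 3 minus the mean of control replicates 1 and 2 (horizontal axis, log2) and cadmium replicate 1 minus the mean of cadmium replicates 2 and 3 (vertical axis, log2), by role. COPI and COPII genes lie above 0 on both axes, and Edem1, Edem2 and Edem3 above 0 on the vertical and below 0 on the horizontal axis.

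The letters TGACGTGG, an element bound by ATF6 and XBP1, occurred on either strand in 4 of the 48 promoter windows of 45 members. Of all 32851 windows, 0.676% held them. The 4 windows belonged to 4 genes, all coat genes, of 14 coat genes and 31 other members with a window. Copb1, Copb2 and Sec24d had the 3 largest differences downward among the coat genes, and Sec16b had a difference of 0.08. The split of coat genes from other members was not planned, and the part of the match in the differences was not tested. Stretches of 60 bases are shown with the match in capitals, as read on the strand of the gene, because they are the 4 members that hold the match: Copb1 and Copb2 passed the test, Sec24d and Sec16b did not. They lie at chr7:114254675-114254734 on the minus strand, chr9:98563698-98563757, chr3:123267444-123267503 and chr1:157506726-157506785 on the plus strand (RefSeq, GRCm38.p6).
Copb1: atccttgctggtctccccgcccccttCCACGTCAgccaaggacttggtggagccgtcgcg
Copb2: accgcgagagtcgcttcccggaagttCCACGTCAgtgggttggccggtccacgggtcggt
Sec24d: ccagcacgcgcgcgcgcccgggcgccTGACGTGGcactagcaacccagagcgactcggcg
Sec16b: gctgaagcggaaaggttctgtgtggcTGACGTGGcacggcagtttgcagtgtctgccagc

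In Copb1 and Copb2 the match reads on the opposite strand, from -28 and -7 relative to the start of the gene. In Sec24d and Sec16b it reads on the strand of the gene, from -26 and -44. No binding was measured in these samples.

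The p24 family of cargo receptors (Tmed) had 4 measured members, of which 0 passed (limma, 1 lower at an unadjusted p under 0.05, against 11.4% of all genes). Tmed3 had 6.02, 5.82 and 5.89 on cadmium arrays, against 6.06, 6.10 and 6.05 on control arrays. Its groups were separated by only 0.024 (difference -0.16, limma adjusted p = 0.15). Tmed11, Tmed5 and Tmed6 had means below 3 and differences of -0.13, 0.04 and 0.15.

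Of 10 tethering and fusion genes 1 fell and 0 rose, against 5.8% and 6.45% of all genes, with a median difference of -0.03. Trappc11, a subunit of the TRAPP tethering complex, had 4.82, 4.66 and 4.66 on cadmium arrays, against 4.97, 5.01 and 5.06 on control arrays (difference -0.30, limma adjusted p = 0.024). Leaving out any array except cadmium replicate 1 ended the call, at adjusted p of 0.057 to 0.088. Trappc2l had 7.18, 7.24 and 7.16 on cadmium arrays, against 7.10, 7.11 and 6.92 on control arrays, without overlap and without passing (difference 0.16, limma adjusted p = 0.18).

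The core TRAPP subunit gene Trappc3 had 6.06, 6.03 and 6.07 on cadmium arrays and 6.10, 6.08 and 6.14 on control arrays, a difference of -0.05. The SNARE gene Sec22b had 3.79, 3.72 and 3.75 on cadmium arrays and 3.87, 3.82 and 4.01 on control arrays (difference -0.14, limma adjusted p = 0.18). The remaining Trappc genes and Sec22c had differences between -0.14 and 0.14. Sec1, a fucosyltransferase gene that shares only its name with the others, had a difference of 0.15 and did not pass.

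Other genes of the same route, from a list of 110 of which 55 were measured alone, gave a like count. Of these 15 fell and 0 rose, against 5.8% and 6.45% of all genes, with a median difference of -0.19. At an unadjusted p under 0.05, 27 were lower and 1 was higher (11.4% and 17.6% of all genes). Those that fell numbered 9 without cadmium replicate 2, 9 without cadmium replicate 3, 8 without control replicate 1 and 8 without control replicate 2. In these fits 2.9%, 2.97%, 3.12% and 2.86% of all genes were called lower. Without both arrays that stood apart, 27 fell and 2 rose, against 7.18% and 8.4% of all genes. Of the 15 that fell with all arrays, 9 had both means above the background bound. The 5 with both means below it were Mia3, Eif2ak3, Dnajc10, Mogs and Dpagt1, for which no fold is given.

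Of 9 measured subunits of the oligosaccharyltransferase, which attaches the glycan, 3 fell (Stt3a, Rpn1 and Ddost), against 5.8% of all genes. The other 6 did not pass (Stt3b, Magt1, Tusc3, Rpn2, Ost4 and Ostc). Stt3a, a catalytic subunit gene, had 8.59, 8.41 and 8.35 on cadmium arrays, against 9.13, 9.17 and 9.09 on control arrays. It was 1.60-fold lower (limma adjusted p = 0.0019). Its paralogue Stt3b had a difference of -0.41 without overlap of the groups (limma adjusted p = 0.079). Rpn1 and Ddost were 1.46-fold and 1.48-fold lower (limma adjusted p = 0.0067 and 0.0033). Ostc and Dpagt1, of the same complex and of the first step of glycan assembly, had differences of -0.38 and -0.29 (limma adjusted p = 0.066 and 0.045). Mogs, the glucosidase that starts trimming, had a difference of -0.36 and Uggt1, the folding sensor that adds glucose back, was 1.54-fold lower (limma adjusted p = 0.024 and 0.0035).

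Kdelr2, a receptor that returns chaperones to the endoplasmic reticulum, had 8.47, 8.68 and 8.70 on cadmium arrays, against 9.29, 9.35 and 9.27 on control arrays. It was 1.61-fold lower (limma adjusted p = 0.0020), and the nearest arrays of the groups were 0.57 apart. Its paralogue Kdelr1 was 1.30-fold lower, and the cargo receptor gene Surf4 1.23-fold (limma adjusted p = 0.018 and 0.012). Calu, a lumenal calcium-binding protein gene, was 1.21-fold lower (limma adjusted p = 0.018). Mia3, which loads collagen into COPII vesicles, had 5.08, 4.99 and 5.09 on cadmium arrays, against 5.58, 5.69 and 5.75 on control arrays (limma adjusted p = 0.0018). Ergic3, Arcn1, Preb, Gorasp2, Uso1 and Lman2l, also of vesicle transport, had differences between -0.26 and 0.08 and did not pass.

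Among regulators, the kinase gene Eif2ak3 (PERK) had a difference of -0.55, and Mbtps1, the protease that cleaves ATF6, was at least 1.27-fold lower with its cadmium mean below the background bound. Their limma adjusted p were 0.0055 and 0.0059. Atf6 itself, chosen here after its values were seen, did not pass (difference -0.23, limma adjusted p = 0.23), and its groups overlapped. Dnajc10, a disulfide reductase, and Selenos, of the degradation machinery, had differences of -0.52 and -0.44 (limma adjusted p = 0.020 and 0.036). Ppib, Ergic2 and Srpr did not pass (limma adjusted p = 0.060 to 0.070).

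Calr, Hyou1 and Herpud1 are chaperone and degradation genes of the unfolded protein response that were picked after their values were seen. Hyou1 had 7.03, 6.21 and 6.13 on cadmium arrays, against 6.53, 6.58 and 6.47 on control arrays. Herpud1 had 6.47, 5.62 and 5.46 on cadmium arrays, against 6.01, 6.17 and 6.43 on control arrays. Calr had 8.97, 8.37 and 8.44 on cadmium arrays, against 8.67, 8.71 and 8.38 on control arrays. None of the 3 passed (limma adjusted p = 0.87, 0.40 and 0.98). Cadmium replicate 1 was the highest of the 6 arrays in these genes and in Hspa5, as in 10 of 51 members, 5 of the 55 listed genes and 20.1% of all genes.

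**Figure D5:**
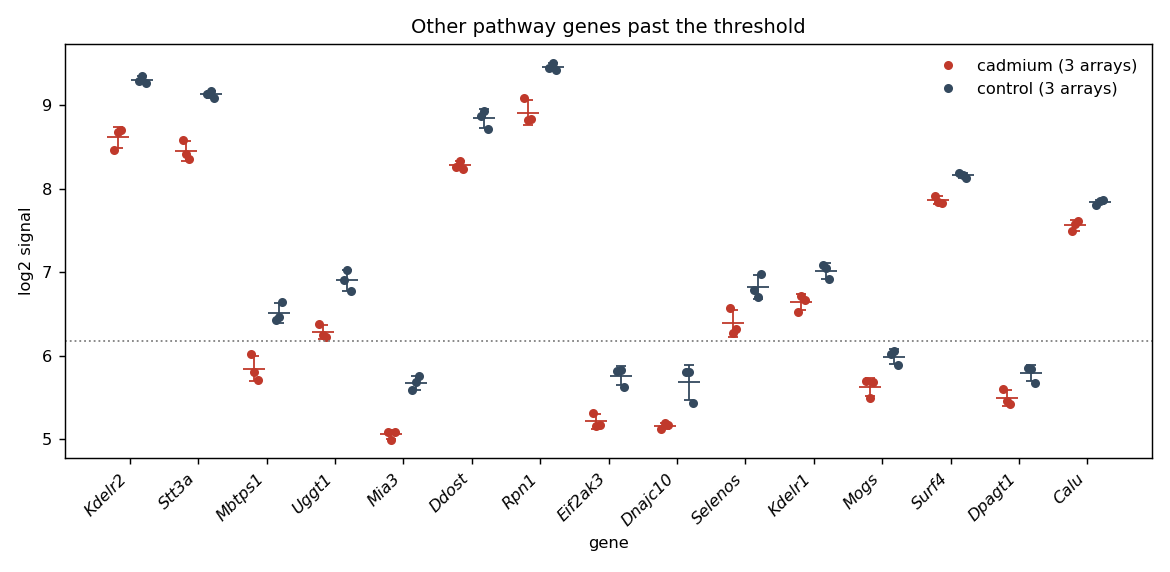
Log2 signal (vertical axis) of the 15 other pathway genes past the threshold on each of 3 cadmium and 3 control arrays, with mean and SD; the dotted line is the background bound of 6.18, and levels of different genes are not comparable. In each gene the 3 cadmium arrays lie below the 3 control arrays, with Kdelr2, Stt3a and Mbtps1 the farthest apart in means. The genes were picked by p on these same arrays, which favours such separation, found downward in 13.1% of all genes.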

How the data were processed

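The deposited table holds 46478 rows, of which 39746 are transcript clusters and 6732 control probes, with 1 value per row and array. The log2 unit of the deposited values is inferred from their range. How background was handled, how arrays were scaled and with which program is not stated in the sources used here, nor is the base of the log, so folds hold only if it is 2. Groups came from the sample titles, and 0 columns of values had no sample.

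Probes were named from the platform annotation, with symbols updated through RefSeq (GRCm38.p6). Exactly 1 symbol was found for 18801 clusters, none for 19601 and more for 1344, which stayed unnamed. The brightest probe stood for each gene. Values of the 18572 genes were tested without further scaling, with limma 3.58.1 in R 4.3.3 (group as the only term), two-sided, with Benjamini-Hochberg adjustment and a threshold of 0.05. The fit was checked on simulated data. A fold is given where both group means exceed the background bound. Where 1 does, it is a lower bound, with each dimmer array raised to its own background value.

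Named genes are Hspa5, members past the threshold, the 2 members of each role with the lowest p, the 2 with the highest level and the largest difference in each direction. Remaining members are named for completeness. Named pathway genes are those past the threshold and the 4 with the next lowest p; other pathway genes named in the text were chosen after their values were seen. Members and lists were chosen with earlier results of these data known. Alternatives covered scaling, level filters, probe choice, variance model, array weights, a replicate block, arrays left out and a stricter threshold. Figures were drawn with matplotlib 3.10.9.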

Additional observations from a re-analysis of the deposited data

How the results depend on the processing

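Of the 14 members that fell, 0 changed direction under any alternative. Their groups did not overlap, so leaving out arrays could not have reversed them. The members that fell numbered 5 of 13 among genes at or above the background bound (13.5% of all such genes), and 3 at an adjusted p under 0.01 (2.23%). Members that rose numbered 1 when only the brighter part of the genes was tested (from the median level up) and 1 with array weights (Sec16a in both), and 2 without both arrays that stood apart. The median difference of the members was -0.19 with centred arrays, -0.18 after quantile normalization and -0.26 at or above the bound. With 1 array left out, 3 to 14 members fell and 0 to 1 rose, and the median was -0.17 to -0.13. In the same fits 8 to 22 other pathway genes fell and 0 to 1 rose, and 2.86% to 5.6% of all genes were called lower. Other pathway genes that fell numbered 23 with array weights, 27 without both arrays that stood apart and 8 at an adjusted p under 0.01. Under the first 2 of these 1 and 2 rose. Among all genes 8.14%, 7.18% and 2.23% were called lower under the 3 settings, and 9.95% and 8.4% higher under the first 2. The cause of these shifts was not tested.

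The labels do not say whether replicate numbers pair the samples. Same-numbered arrays deviated from their group means with correlations of -0.11, 0.053 and -0.11. With 3 arrays a group such deviations sum to 0, so these values cannot show whether the samples were paired. With the replicate number as a block 8 members and 10 other pathway genes fell, against 3.46% of all genes. The calls lost were those of Alg14, Alg6, Sec11a, Sec61a1, Sec63 and Trappc11, at adjusted p of 0.055 to 0.12. Most members lie below the background bound, which limits what small differences can show.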
